A study of Sus scrofa with 4 samples.

Results

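The genes described here are 10 members of the thermogenic and beige adipocyte program, taken by symbol from 16192 mRNAs: PPARGC1A, PPARGC1B, PRDM16, EBF2, UCP2, UCP3, DIO2, TMEM26, TBX15 and TFAM. Their expression was followed in subcutaneous preadipocytes of male Chinese Erhualian piglets at 5 days of age, at confluence (D0), after 2 days with dexamethasone, 3-isobutyl-1-methylxanthine and insulin (D2), after 2 more days with insulin (D4), and after a return to growth medium (D8). RNA of 3 piglets was pooled into 1 library for each stage. With 4 unreplicated libraries, a difference between stages cannot be told apart from one between libraries, and none was tested. The library totals were 54128151 to 75387428 fragments. Levels are in FPKM (fragments per kilobase of gene, scaled to the library total), which allows different genes to be compared, and positions are on the pig build Sscrofa11.1. An interval given with an FPKM or a ratio covers 95% counting error only.

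Brown and beige adipocytes burn fatty acids for heat in mitochondria rich in the uncoupling protein UCP1, of which pigs lack a working copy. The program is set by transcription factors such as EBF2 and PRDM16. The PGC-1 coactivators (PPARGC1A and PPARGC1B) drive the making of mitochondria, partly through TFAM, which packages mitochondrial DNA and activates its transcription. DIO2 converts thyroxine to the active thyroid hormone T3, TMEM26 is a surface marker of beige cells in mice, TBX15 is a T-box factor of subcutaneous fat depots, and UCP2 and UCP3 are mitochondrial carriers related to UCP1. UCP1 itself was not listed among the mRNAs and so could not be analysed.

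The members covered a wide range of levels. TFAM (24.3 to 41.8 FPKM), TBX15 (11.8 to 26.4 FPKM) and TMEM26 (1.72 to 5.93 FPKM) were the only ones at an FPKM of at least 1 in at least 3 of 4 libraries, the filter for reliable expression, which 9191 of 16192 mRNAs passed. TFAM and TBX15 together made up between 82.5% (D0) and 92.0% (D2) of the summed FPKM of the 10 genes. EBF2 reached an FPKM of 1 at D2 and D4, PPARGC1B did so at D4, and PPARGC1A, DIO2, PRDM16, UCP2 and UCP3 stayed under 1 at every stage. At D4, the members in order of FPKM were TFAM, TBX15, EBF2, TMEM26, PPARGC1B, DIO2, PPARGC1A, UCP3, PRDM16 and UCP2. The counting intervals of EBF2 (2.67 to 2.95 FPKM) and TMEM26 (2.36 to 2.95 FPKM) overlapped at that stage, as did those of the last 3 genes.

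**Figure D1:**
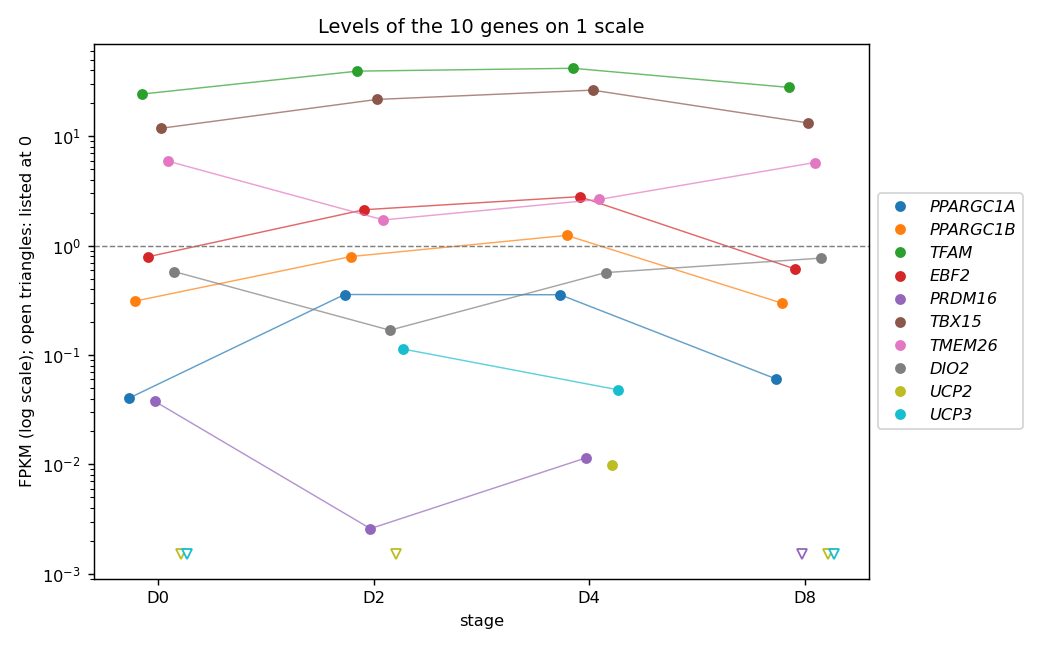
FPKM of the 10 genes (log axis) at D0, D2, D4 and D8, 1 point per gene and library, with open triangles for values listed at 0 and a dashed line at FPKM 1. TFAM and TBX15 lie above the other genes at each stage, TMEM26 is the only other gene above the line in all 4 libraries, and UCP2, UCP3 and PRDM16 lie at the bottom.

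Of the members, 5 were higher at both D2 and D4 than at D0 and D8, with values above 0 in all libraries. They were PPARGC1A, PPARGC1B, TFAM, EBF2 and TBX15. Among the 13327 mRNAs above 0 in all 4 libraries, 33.8% had the same order, against 5 of 7 members. TMEM26 and DIO2 had the opposite order, with D2 and D4 under D0 and D8, as did 23.3% of these mRNAs, although DIO2 at D4 and D0 differed by less than the counting error. EBF2, PPARGC1B, TBX15 and TFAM were highest at D4, the stage at which 36.7% of these mRNAs were highest. With the filter and a ratio of at least 2, TMEM26 was lower at D2 than at D0, as were 10.1% of the 9191 mRNAs, and none of the 3 members tested was higher (6.67% of mRNAs). At D4, TBX15 was higher than at D0 (10.4%) and TMEM26 was lower (8.81%). At D8, TMEM26 was higher than at D4 (4.43%) and none was lower (10.1%). None of the 3 passed the ratio in either direction between D4 and D2 (4.24% higher and 0.838% lower) or between D8 and D0 (3.6% higher and 3.68% lower).

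**Figure D2:**
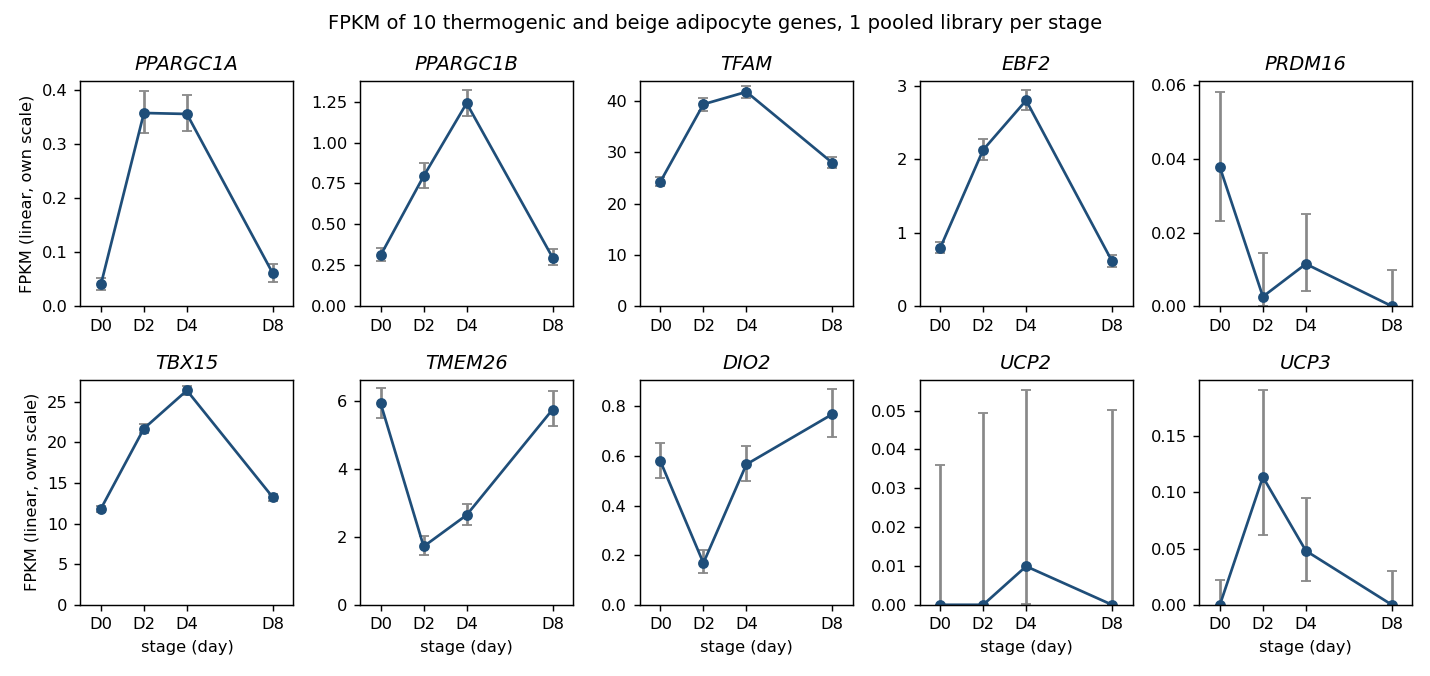
FPKM (linear axis, own scale for each gene) against the day of differentiation, 1 pooled library per stage. Bars are 95% Poisson intervals for counting error. PPARGC1A, PPARGC1B, TFAM, EBF2 and TBX15 are high at D2 and D4, TMEM26 and DIO2 are lowest at D2, and the values of UCP2, UCP3 and PRDM16 rest on 20 reads or fewer in each library.

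The PGC-1 coactivators were low at D0 and at D8 and higher in between. PPARGC1A, on chromosome 8 from 17841844 to 18527953, stood at 0.0403 FPKM before induction (D0), 0.357 and 0.355 FPKM at D2 and D4, and 0.0605 FPKM at D8, from 51, 330, 444 and 55 reads. The D2 and D4 values were alike, both far above the other stages. The ratio of D2 to D0 was 8.87 (interval 6.59 to 12.2) and that of D4 to D2 was 0.995 (0.861 to 1.15). From D4 to D8 it dropped to a level 5.88-fold lower (4.43 to 7.93), and D8 was 1.502 times D0 (1.01 to 2.24). Even at its highest, PPARGC1A had more FPKM than only 33.3% of the mRNAs.

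PPARGC1B, on chromosome 2 from 150823338 to 150924871, went from 0.311 FPKM (D0) to 0.795 (D2) and 1.24 (D4) and was at 0.297 FPKM on D8, from 238, 443, 935 and 163 reads. Unlike PPARGC1A, it was higher at D4 than at D2, by a ratio of 1.56 (1.39 to 1.75). Its ratio to D0 was 2.55 at D2 (2.18 to 3.00) and 3.98 at D4 (3.45 to 4.61), and at D8 it was 4.18-fold lower than at D4 (3.53 to 4.96). PPARGC1B was the more abundant coactivator in each library, with 7.73 times the FPKM of PPARGC1A at D0 and 2.22, 3.49 and 4.91 times at the later stages. PPARGC1B hosts a microRNA gene, MIR378-1, on the same strand, whose 80-base hairpin had 1.16, 5.91, 1.85 and 4.62 FPKM, from only 7, 26, 11 and 20 reads. A newly assembled antisense RNA inside PPARGC1B, MSTRG.28283, had 14 reads at D0 and 0 in the other libraries, which allows up to 3 reads each.

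TFAM, on chromosome 14 from 92261713 to 92279731, had 24.3 FPKM (D0), 39.4 FPKM (D2), 41.8 FPKM (D4) and 28.0 FPKM (D8). Its range was the narrowest of the 7 members above 0 throughout, with a ratio of 1.72 (1.65 to 1.80) between D4 and D0, and it passed a ratio of 2 in none of the 5 comparisons. D8 remained 1.15 times D0 (1.09 to 1.21). TFAM had more FPKM than 92.1% of the mRNAs at D4.

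Among the transcription factors, EBF2 and TBX15 shared the peak at D4, whereas PRDM16 was seen in few reads. EBF2, on chromosome 14 from 9816992 to 10027574, was measured at 0.792, 2.13, 2.80 and 0.611 FPKM in the libraries of D0, D2, D4 and D8, from 444, 871, 1551 and 246 reads. It was 2.69-fold higher at D2 than at D0 (2.40 to 3.02) and 3.54-fold higher at D4 (3.18 to 3.94). By D8 it was 4.59-fold lower than at D4 (4.01 to 5.27) and under its D0 level, at 0.772 of it (0.658 to 0.904). On the log2 scale that interval ended at -0.146, and scaling by the median ratio shifts D8 vs D0 by 0.158. Whether D8 was under D0 beyond counting error thus depends on the scaling of EBF2. EBF1, its paralog and a factor of adipocyte commitment in general, had 4.51, 28.2, 35.2 and 7.66 FPKM in the 4 libraries, which was 5.70 times EBF2 at D0 and 12.5 to 13.2 times EBF2 afterwards.

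TBX15, on chromosome 4 from 101918891 to 102032280, had 11.8 FPKM before induction, 21.7 FPKM on D2, 26.4 FPKM on D4 and 13.2 FPKM on D8, from 3283 to 9001 reads per library. D4 was 2.23 times D0 (2.15 to 2.32). D8 was 1.996-fold lower than D4 (1.92 to 2.08), just short of the threshold, and passed it when FPKM was scaled to the sum of protein-coding genes. D8 was 1.12 times D0 (1.07 to 1.17).

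PRDM16, on chromosome 6 from 64704181 to 65012580, had 0.0377, 0.00259, 0.0115 and 0 FPKM in stage order, from 20, 1, 6 and 0 reads. The value of 0 on D8 allows up to 3 reads or 0.00788 FPKM, against which D8 was at least 4.79-fold lower than D0 if the 20 reads are taken as exact. With their counting error included, the interval began at 3.54-fold. D2, with 1 read, was 14.6-fold lower than D0, with an interval of 2.33 to 605. Unlike the other factors, PRDM16 had its highest value before induction, but at that value it had more FPKM than only 17.7% of the mRNAs.

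TMEM26, on chromosome 14 from 64881216 to 64925449, began at 5.93 FPKM (D0), had 1.72 FPKM on D2 and 2.64 FPKM on D4, and ended at 5.75 FPKM (D8), from 705, 149, 310 and 491 reads. D0 was 1.03 times D8 (0.917 to 1.16), within counting error, and both were above D2 and D4. D2 was 3.45-fold lower than D0 (2.89 to 4.15), D4 was 2.24-fold lower than D0 (1.96 to 2.57), and D8 was 2.18 times D4 (1.88 to 2.52). An assembled RNA within TMEM26, MSTRG.124499, which the authors classed as antisense but listed on the strand of TMEM26, had 53, 8, 27 and 35 reads in stage order, with its lowest value also on D2. How the reads of these overlapping features were divided is not given in the sources used here.

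DIO2, on chromosome 7 from 103096414 to 103110749, had 0.579 FPKM (D0), 0.169 FPKM (D2), 0.566 FPKM (D4) and 0.769 FPKM (D8). D2 was the lowest library and D8 the highest, both apart from D0 and D4 beyond counting error, with 259, 55, 250 and 247 reads in stage order. D2 was 3.43-fold lower than D0 (2.56 to 4.68), D4 was 3.36 times D2 (2.50 to 4.59) and 0.979 of D0 (0.819 to 1.17), and D8 was 1.33 times D0 (1.11 to 1.59). DIO2 was the only member that was highest at D8.

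The uncoupling protein paralogs lie 13470 bases apart on the same strand of chromosome 9 and were barely detected. UCP2, from 8358559 to 8364552, was listed at 0 at D0, D2 and D8 and at 0.00991 FPKM at D4, which was 1 read at the shortest possible length and at most 4 reads within the span of the gene. A library with 0 reads allows up to 3, or 0.0293 to 0.0408 FPKM of UCP2, so that no fold is given. UCP3, from 8378023 to 8389452, had 14 reads at D2 (0.114 FPKM), 8 at D4 (0.0480 FPKM) and 0 at D0 and D8. Set against 3 reads at D0, D2 was at least 6.40-fold and D4 at least 2.70-fold higher, with the reads at D2 and D4 taken as exact. With their counting error included, the intervals of these ratios began at 4.55 and 1.73. From D2 to D4, the ratio (0.423, interval 0.154 to 1.08) did not differ from 1 beyond counting error.

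Counted without the FPKM filter, 4 members were at least 2-fold higher at D2 than at D0, where 12.6% of all mRNAs were, and 3 were at least 2-fold lower (17% of mRNAs). Between D4 and D0, 5 were higher (17.6%) and 2 were lower (14.7%). Between D8 and D4, 1 was higher (11%) and 5 were lower (16.7%), and between D8 and D0 none was higher (10.5%) and only PRDM16 was lower (11.2%). Between D4 and D2, DIO2 was higher (12.4%) and UCP3 lower (6.26%). Part of these ratios rested on few reads. When the nearer bound of the counting interval also had to reach 2, the 4 higher members (7.51% of mRNAs) and the 3 lower ones (11.2%) between D2 and D0 passed again. They were PPARGC1A, PPARGC1B, EBF2 and UCP3 on the one side and TMEM26, DIO2 and PRDM16 on the other. Between D4 and D0, 4 members were higher, namely PPARGC1A, PPARGC1B, EBF2 and TBX15 (11.4%), and none was lower (9.71%). Between D8 and D4, PPARGC1A, PPARGC1B and EBF2 were lower (8.72%) and none was higher (5.96%). DIO2 was higher at D4 than at D2 (5.67%) and none was lower (2.15%), and between D8 and D0 none was higher (5.84%) and PRDM16 was lower (4.84%).

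**Figure D3:**
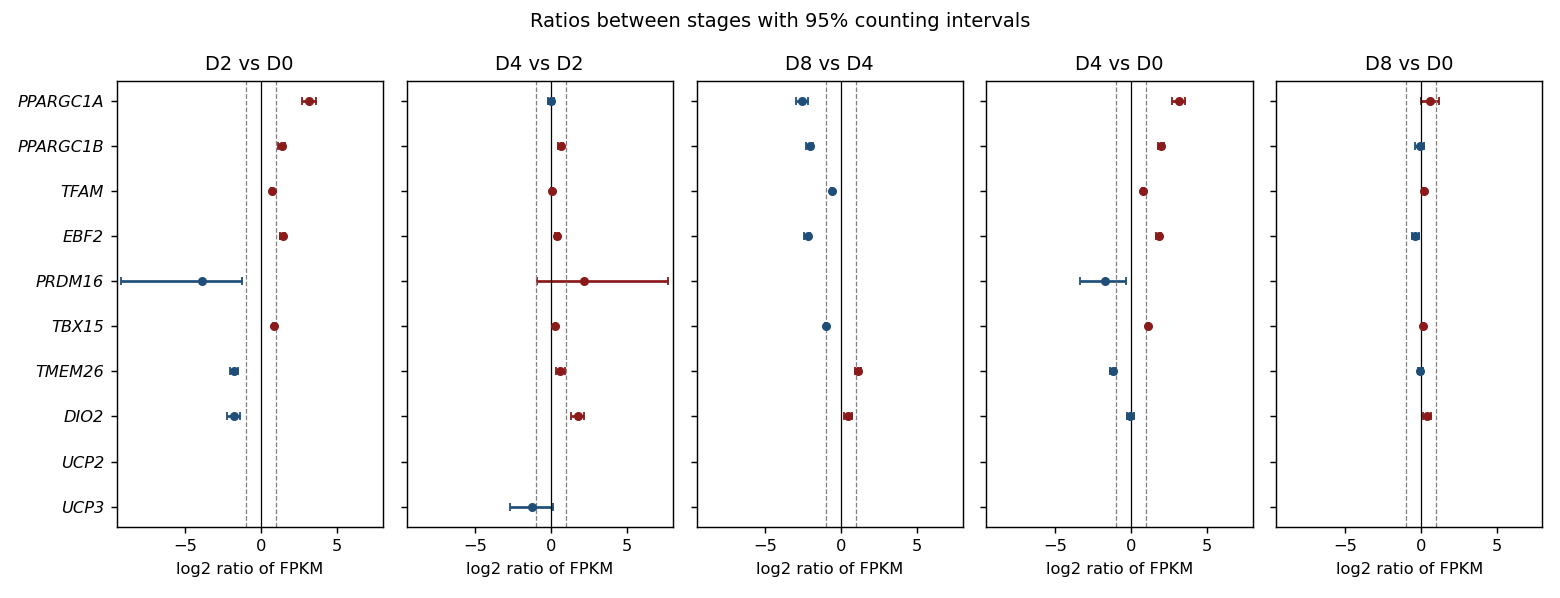
Log2 ratios of FPKM for each gene in the 5 comparisons, with 95% counting intervals and dashed lines at a ratio of 2 in either direction; genes with 0 reads in a library of the pair are not drawn. PPARGC1A, PPARGC1B and EBF2 lie right of the line for D2 vs D0 and D4 vs D0 and left of it for D8 vs D4, and for D8 vs D0 each gene drawn lies between the lines.

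Other markers of brown and beige adipocytes were in part higher at D4 and D8 than before induction. Of 30 listed markers, 22 were in the files and 10 passed the filter. Of these 10, 5 were at least 2-fold higher at D4 than at D0 (10.4% of mRNAs past the filter) and none was lower (8.81%). Their median log2 ratio was 1.11 (0.06 over all mRNAs past the filter). Between D8 and D4 none of the 10 passed a ratio of 2 in either direction (4.43% of mRNAs were higher and 10.1% lower). The median was -0.05 (-0.21 over all). The D8 levels of these 10 thus stayed close to D4, but the filter bears on this. A marker under an FPKM of 1 at D0 passed only if it was at 1 or more at D8. MTUS1 passed in this way, with 0.445 FPKM at D0 and 2.12 at D8, which also favoured its count as higher at D4. CIDEA, a lipid droplet protein that is also abundant in white fat of several species, had 2.75, 9.74, 40.2 and 54.3 FPKM in stage order. COX7A1, a respiratory chain subunit of heart and brown fat, had 15.5, 45.7, 39.7 and 37.3 FPKM, and FABP3, the heart fatty acid-binding protein, had 153, 638, 3254 and 3805 FPKM. MTUS1 was 5.06-fold and EPSTI1 2.79-fold higher at D4 than at D0, and NRG4, a secreted factor of brown fat, had 4.14 FPKM at D0 and 9.09 at D8. Of the markers below the filter, 4 were picked after their values were seen. HSPB7 had 389 reads at D0, 0 and 1 at D2 and D4, and 57 at D8, and CPT1B had 0.717, 0.670, 0.392 and 0.616 FPKM. CITED1 had 0.112, 0.944, 1.30 and 0.395 FPKM and PLIN5 had 77 reads at D4, 5 at D8 and 0 before.

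PGC-1 coactivators work with nuclear factors such as NRF1 and ESRRA, and mitochondrial biogenesis also needs the machinery that copies mitochondrial DNA. Of 21 listed PGC-1 partners and genes of mitochondrial biogenesis, 16 passed the filter, and 11 of the 16 were higher at D2 and D4 than at D0 and D8 (36.4% of mRNAs past the filter). Their ratios were small. Only 1 gene was at least 2-fold higher at D4 than at D0 (10.4% of mRNAs past the filter). At D8, 2 were at least 2-fold lower than at D4 (10.1%). The first was SIRT3, the mitochondrial deacetylase, with 3.69, 6.76, 8.005 and 3.60 FPKM, and it was joined at D8 by SIRT1, its nuclear relative, with 2.18, 2.26, 3.27 and 1.55 FPKM. Their median log2 ratio was 0.52 between D4 and D0 (0.06 over all) and -0.48 between D8 and D4 (-0.21 over all).

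Of 23 cofactors and regulators of the beige program, 17 passed the filter. Between D4 and D0, 3 were at least 2-fold higher and 1 was lower, against 10.4% and 8.81% of mRNAs past the filter. Between D8 and D4 none was higher and 3 were lower (4.43% and 10.1% of mRNAs). The median log2 ratios were 0.24 and -0.64 (0.06 and -0.21 over all). NFIA, a factor that opens brown fat enhancers, had 0.756, 4.93, 4.95 and 1.94 FPKM. It passed the filter only through the stages after D0, where it was higher, so that the filter favoured its count as higher at D4. LETMD1, a mitochondrial protein of brown fat, was 2.82-fold and TLE3, a corepressor that opposes PRDM16, 2.08-fold higher at D4 than at D0. TLE3 was 3.12-fold and CEBPB 2.44-fold lower at D8 than at D4, RB1 was 2.20-fold lower at D4 than at D0, and ZNF516 had 1.02 FPKM at D8 against 2.23 at D0.

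**Figure D4:**
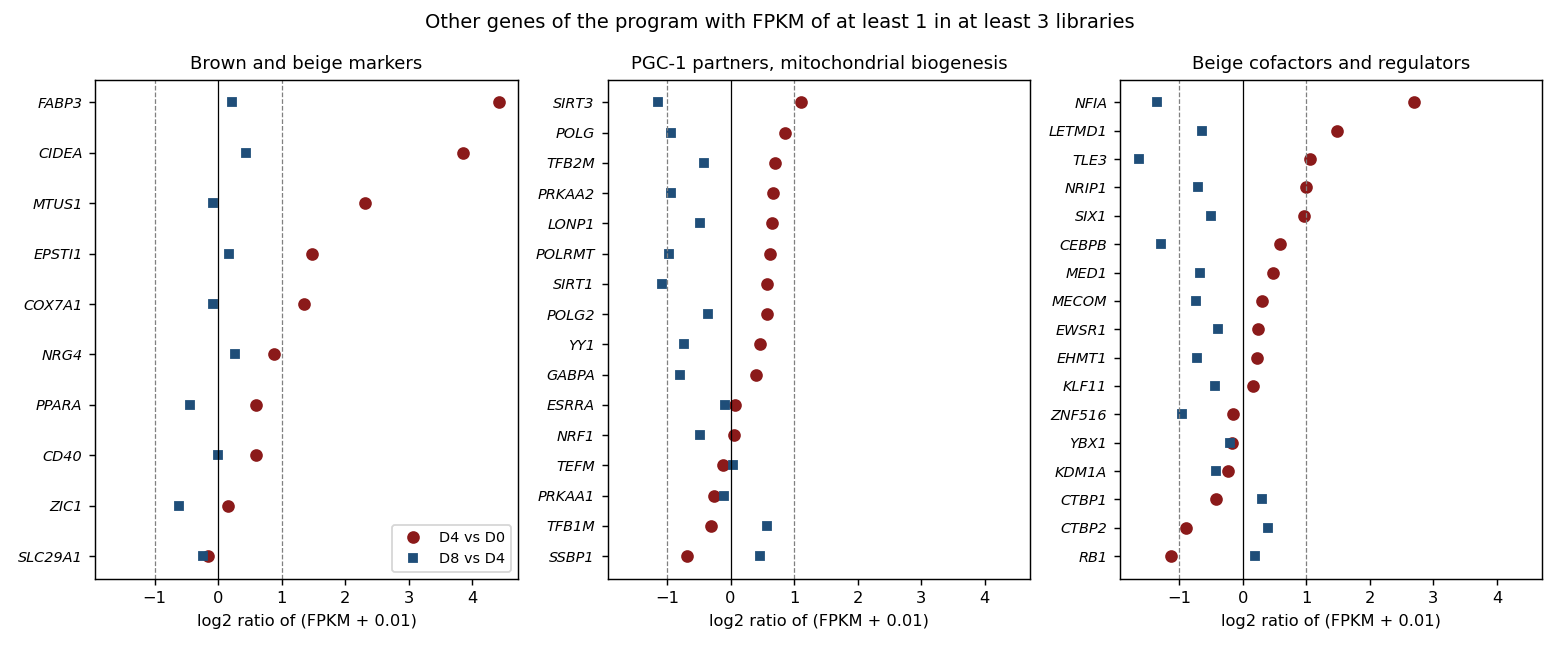
Log2 ratios of (FPKM + 0.01) of the listed genes past the FPKM filter, D4 vs D0 as circles and D8 vs D4 as squares, with dashed lines at a ratio of 2. The brown and beige markers lie near 0 for D8 vs D4 (median -0.05), whereas most PGC-1 partners and cofactors lie left of 0 (medians -0.48 and -0.64). A gene under an FPKM of 1 at D0 is shown only if it was at 1 or more at D8.

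Thyroid hormone handling was covered by 8 genes past the filter beside DIO2. Of these, 2 were at least 2-fold higher at D4 than at D0 and none was lower (10.4% and 8.81% of mRNAs), with a median log2 ratio of 0.25 (0.06 over all). THRB, a T3 receptor, had 0.320, 1.15, 2.46 and 1.29 FPKM. THRSP, a lipogenic target of thyroid hormone, had 0.908, 55.0, 182 and 138 FPKM. THRB and THRSP were the 2 higher genes, and both were under an FPKM of 1 at D0. They passed the filter only through the later stages, where they were high, so that the filter favoured this count. The other T3 receptor, THRA, was 2.37-fold lower at D8 than at D4. For heat production without UCP1, 6 of 17 listed genes passed the filter. None was 2-fold apart between D4 and D0 (10.4% of mRNAs were higher and 8.81% lower). At D8, 1 was at least 2-fold higher than at D4 (4.43% of mRNAs). Their median log2 ratio was 0.25 for D4 vs D0 and -0.28 for D8 vs D4 (0.06 and -0.21 over all). The gene that was higher at D8 was GATM, an enzyme of creatine synthesis, with 1.57, 1.90, 1.93 and 5.67 FPKM. CKB, the cytosolic creatine kinase of the creatine cycle, had 24.3, 15.4, 39.3 and 34.6 FPKM. Among the paralogs of the members, 10 of 27 passed the filter, with a median log2 ratio of -0.23 for D4 vs D0 (0.06 over all). EBF1 was the only paralog at least 2-fold higher at D4 than at D0 (10.4% of mRNAs), TBX2 was 4.21-fold lower at D8 than at D4, and HMGB2, a relative of TFAM, had 17.9 FPKM at D2 and 36.5 at D4.

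Markers of cell types also differed between the stages, in part in another order than the members. Of 14 adipocyte markers, 13 passed the filter. All 13 were at least 2-fold higher at D4 than at D0 (10.4% of mRNAs past the filter), with a median log2 ratio of 4.01 (0.06 over all). DGAT2 and LIPE, at 0.152 and 0.808 FPKM at D0, passed the filter only through the later stages, where they were high. Of the 13, 6 were at least 2-fold lower at D8 than at D4 (10.1%). Only 3 of the 13 were higher at D2 and D4 than at D0 and D8 (36.4% of mRNAs past the filter). ADIPOQ, for adiponectin, had 3.80, 29.6, 179 and 158 FPKM. The 7 smooth muscle markers summed to 5807 FPKM (D0), 631 FPKM (D2), 514 FPKM (D4) and 4796 FPKM (D8). All 5 that passed the filter were at least 2-fold lower at D4 than at D0 (8.81% of mRNAs). They were also lower at D2 and D4 than at D0 and D8 (24.2%), as was TMEM26. EBF2 and PPARGC1B, which did not pass the filter, had the opposite order, as did 33.8% of mRNAs above 0 in all 4 libraries. ACTA2, smooth muscle actin, had 2907, 324, 225 and 2762 FPKM. Of 16 skeletal muscle markers, a cell type in which TBX15, UCP3 and PPARGC1A are also expressed, 12 were in the files and 3 passed the filter, with a summed level of 7.06 (D4) to 452 (D0) FPKM, of which DES, a filament protein also made by smooth muscle, made up 436 at D0. MYL1 (8.67, 1.09, 0.992 and 16.8 FPKM) and TNNC2 (6.80, 1.58, 1.67 and 8.05 FPKM), proteins of the contractile apparatus, were lower at D2 and D4 than at D0 and D8, as was TMEM26. Of mRNAs past the filter, 24.2% had this order. DES, the remaining marker past the filter, did not have it, with 436, 37.7, 4.05 and 35.7 FPKM in stage order. MYOG, a defining factor of muscle cells, had 1 read at D2 and 0 otherwise. MYF5 and MYOD1 were not listed among the mRNAs and so could not be analysed. The 9 macrophage and leukocyte markers in the files summed to 5.77 to 10.1 FPKM, with 4 to 22 reads for PTPRC, the common leukocyte antigen. Of the 3 that passed the filter, only CD14 (3.14, 5.64, 7.54 and 2.78 FPKM) was higher at D2 and D4 than at D0 and D8, as were EBF2 and PPARGC1B. That order was found in 36.4% of mRNAs past the filter, which EBF2 and PPARGC1B did not pass. CD163 did not have it, with 0.270, 1.42, 1.01 and 1.38 FPKM. The 8 endothelial markers summed to 1.42 to 2.82 FPKM, most of it PECAM1. The part of these cell types in the profiles of the members was not tested. In pooled bulk RNA, fewer cells of a type and less RNA per cell cannot be told apart.

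**Figure D5:**
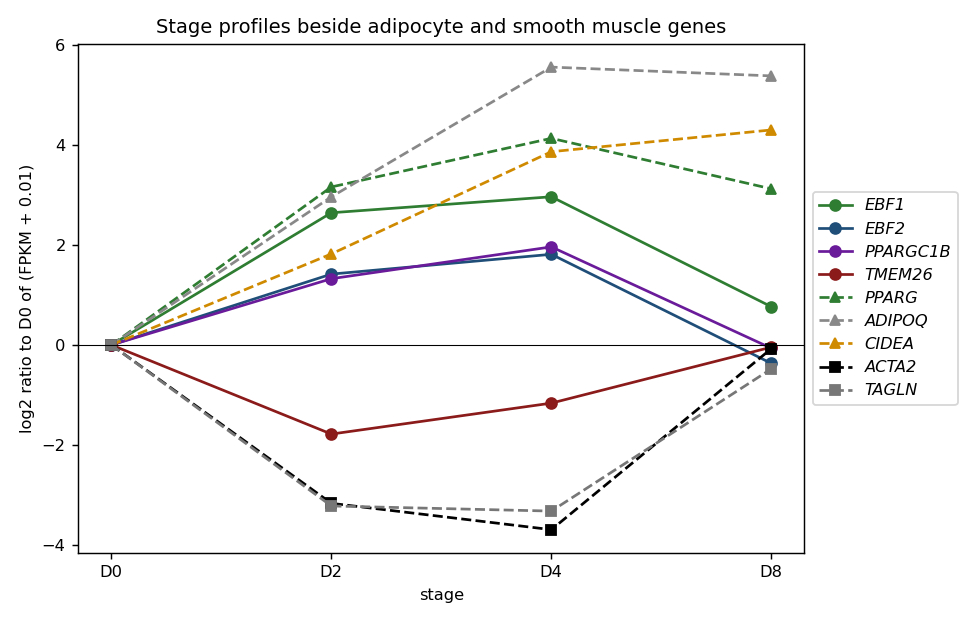
Log2 ratio to D0 of (FPKM + 0.01) at each stage for EBF2, PPARGC1B and TMEM26, beside EBF1, 3 genes of adipocytes or lipid droplets (PPARG, ADIPOQ, CIDEA; dashed, triangles) and 2 smooth muscle genes (ACTA2, TAGLN; dashed, squares). PPARG was added after its values were seen. EBF2, PPARGC1B, TMEM26 and ACTA2 are back near the D0 level at D8, while ADIPOQ and CIDEA stay high.

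The mRNAs with the most similar profile were searched for the 3 members past the filter, by the root mean square difference of centred log2 values over the 4 libraries, among 9190 mRNAs. For TMEM26 they were TRIM59 (0.062), PRUNE2 (0.063) and KCTD9 (0.065). For TBX15 they were NEK4 (0.010), FZD1 (0.021) and SUOX (0.032), and for TFAM they were INTS2 (0.010), SPIN3 (0.017) and ZNHIT3 (0.018). Over only 4 points, close profiles are easily found. TRIM59, for example, had 5.77, 1.49, 2.40 and 5.10 FPKM beside the 5.93, 1.72, 2.64 and 5.75 FPKM of TMEM26.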

How the data were processed

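Trimmed reads were aligned by the authors to Sus scrofa 11.1 with HISAT2 2.0.5, and FPKM was deposited for mRNAs and other linear RNAs. For circRNAs, the authors used BWA and CIRI with at least 2 junction reads and deposited SRPBM. Members were the rows of biotype protein_coding with the 10 gene names, and they and the 11 other gene lists were chosen with earlier results of these data known. Read numbers were computed from the deposited FPKM alone. The FPKM of tRNA genes, multiplied by their span, came in whole multiples of the value of 1 read for 91.0% to 92.7% of those above 0 (tolerance 0.001 reads), which gave the library totals. For each gene, the shortest length in whole bases was sought at which its FPKM values became whole reads, and it was found for 16167 of 16192 mRNAs. A multiple of that length is also possible.

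The filter (FPKM of at least 1 in at least 3 of 4 libraries) and the ratio of at least 2 followed the study's methods, without its FDR. The ratio was taken here on log2(FPKM + 0.01), with the pseudocount chosen for this work. Fold values are ratios of FPKM, and their 95% intervals are exact (Clopper-Pearson) and cover counting error only. No test was run, since each stage is 1 library. Scripts used Python 3.11.15, NumPy 2.4.6, pandas 2.3.3 and SciPy 1.17.1 and were tested on simulated data. Besides the members, the rule allowed up to 6 genes a list, those at least 2-fold apart in a comparison and past the FPKM filter, largest difference first, plus defining markers such as PTPRC. Of the cell type lists only some of these are named, picked with their values known, as was MYOG. For each member past the filter, the 3 mRNAs with the smallest root mean square difference in centred log2 profile were named. Alternatives were other pseudocounts, filters, scalings and thresholds. A listed gene of thyroid hormone handling is not reported here and was left out of the counts of its list.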

Additional observations from a re-analysis of the deposited data

Results flagged for a closer look

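A single circRNA was found on the strand of a member. It lies within TMEM26, had 44.9 SRPBM at D0, which was 7 junction reads, and was listed at 0 in the other 3 libraries. It stands here because circRNAs were outside the comparisons and its value was above the 19.3 SRPBM that 3 junction reads are worth at D0. Below 2 junction reads the authors listed no value. TMEM26 itself was highest at D0 (5.93 FPKM), but within counting error of D8 (5.75 FPKM), where the circRNA was listed at 0.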

How the results depend on the processing

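With a pseudocount of 0.1 or median-ratio scaling, the numbers of members at least 2-fold apart were those of the report in all 5 comparisons. With a pseudocount of 1, TMEM26 kept its ratio for D2 vs D0 and lost the others. This left 0 members higher for D8 vs D4 (3.18% of mRNAs) and 0 lower for D4 vs D0 (6.57%). Without the filter on FPKM, 4 members were higher and 3 lower for D2 vs D0, 1 and 1 for D4 vs D2, 5 lower for D8 vs D4, 5 higher and 2 lower for D4 vs D0, and 1 lower for D8 vs D0. With FPKM of at least 1 in at least 1 library, EBF2 and PPARGC1B entered. This gave 2 higher for D2 vs D0 (8.02% of mRNAs), 2 lower for D8 vs D4 (11.8%) and 3 higher for D4 vs D0 (12.3%). EBF2 passed only through D2 and D4 and PPARGC1B only through D4, the stages where they were high. The filter itself thus favoured their counts as higher at these stages and lower at D8. Scaled to the sum of protein-coding genes, 1 member (TBX15) was lower at D8 than at D4, as were 1016 of 9177 mRNAs. At a ratio of 1.5, 2 were higher for D2 vs D0 (15.6% of mRNAs), 1 for D4 vs D2 (11.7%) and 2 for D4 vs D0 (22%). For D8 vs D4, 1 was lower (25.9%). With a ratio of 2 at the nearer bound of the counting interval, TMEM26 left both D8 vs D4 and D4 vs D0. This gave 0 higher for D8 vs D4 (3.44% of mRNAs) and 0 lower for D4 vs D0 (7.38%). With that bound and no filter, a setting chosen after seeing the data, 4 were higher and 3 lower for D2 vs D0, 1 higher for D4 vs D2, 0 higher and 3 lower for D8 vs D4, 4 higher and 0 lower for D4 vs D0, and 1 lower for D8 vs D0. For the settings without the filter, the shares of all mRNAs stand beside the same counts in the results above.

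Median-ratio scaling shifted log2 ratios by 0.20 for D8 vs D4 and by 0.16 for D8 vs D0, and scaling to the protein-coding sum shifted those for D2 vs D0 by 0.11, with smaller shifts for genes near the pseudocount. The 5 members higher at D2 and D4 than at D0 and D8 held that order under both scalings, chosen for this count after seeing the data, against 29.9% and 38.9% of mRNAs, and DIO2 lost the opposite order when scaled to the protein-coding sum. Of the log2 ratios of single members, 3 that were within counting error of 0 changed sign. Median-ratio scaling moved D8 vs D0 from -0.07 to 0.09 for PPARGC1B and from -0.04 to 0.11 for TMEM26, and the protein-coding sum moved D4 vs D0 from -0.03 to 0.0083 for DIO2.

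No paired analysis was possible because each stage is 1 pooled library, and no library was left out for the same reason. Gene lengths from an annotation were not run as an alternative. Depth limits UCP2, UCP3 and PRDM16, with 1, 22 and 27 reads in all.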
